A study of Mus musculus with 4 samples.

Results

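The 41 genes described here are type I interferon-stimulated genes, a set of genes that cells switch on after sensing interferon alpha or beta. They were taken from a fixed list of names and kept where all 4 deposited tables held a column of that name, which gave 41 of 20640 genes. No measured value entered this choice, although earlier results of these data were known when the list was drawn up. The genes were followed in lungs of female C57BL/6 mice, aged 8 weeks when they received 150000 HKP1 cells by the tail vein. HKP1 is a mouse lung adenocarcinoma line, so every group carried tumour. Mice were assigned to treatments on day 6 from bioluminescence, and were then mock-treated (0 Gy) or given 4 Gy on each of 3 days, from day 10 to day 12. Lungs were collected 24 to 48 h later, 4 mice were used per treatment, and the viable cells were separated by flow sorting into a fraction without surface CD45 (non-leukocytes) and one with it (leukocytes). Each dose and fraction gave 1 library of 10x Genomics 3′ single-cell RNA sequencing, so there were 4 libraries in all. The question addressed is how these genes differed between 4 Gy and 0 Gy within each fraction and within each cell type.

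Type I interferons bind a receptor made of Ifnar1 and Ifnar2, which activates the kinases Jak1 and Tyk2. These activate the complex ISGF3, which contains Stat2 and Irf9, and ISGF3 binds the interferon-stimulated response element in the promoters of its targets. The targets include antiviral effectors (the Ifit, Oas and Mx families, Rsad2, Bst2 and Ifitm3), RNA and DNA sensors that lead to more interferon (Ddx58, Ifih1, Zbp1, Ifi204), the transcription factors Irf1 and Irf7, and Usp18, which dampens the receptor. In the lung these genes form a first defence against respiratory virus, and ionizing radiation is known to be able to induce them through DNA sensing.

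The response element is shown here because it is the known binding site of ISGF3 and was more frequent in promoters of these genes than of all genes, although not all of them held it. Promoters, from 250 bases before to 50 bases after a transcript start, were found in RefSeq (GRCm38.p6) for 31 of the 41 genes. The core, GAAA followed by any 2 bases and GAAA again, was searched on both strands (TTTC, 2 bases, TTTC on the other), with overlapping matches allowed. It was present for 16 of the 31 genes (51.6%), against 3.99% of 27025 genes with a promoter of the same length, and lay before the start for 12 of them (38.7% against 3.46%). Windows of 5 members are printed 5′ to 3′ on the gene's own strand, with the bases covered by a match in capitals.
Isg15, chr4:156200865-156200906, minus strand: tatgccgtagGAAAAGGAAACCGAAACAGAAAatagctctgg
Ifit1, chr19:34640775-34640823, plus strand: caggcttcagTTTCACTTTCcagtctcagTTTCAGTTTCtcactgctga
Ifit3, chr19:34583363-34583426, plus strand: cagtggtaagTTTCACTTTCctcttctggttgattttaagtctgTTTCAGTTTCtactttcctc
Oas1a, chr5:120907526-120907555, minus strand: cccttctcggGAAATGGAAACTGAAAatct
Rsad2, chr12:26456553-26456582, minus strand: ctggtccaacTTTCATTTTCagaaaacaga
Isg15 carried 3 overlapping matches, which started 78, 72 and 66 bases before its transcript start. The window of Ifit3b, a close copy of Ifit3, was identical to that of Ifit3 over all 64 bases, and the last 400 bases of their transcripts aligned over 97 bases with 91 identical, so UMIs of this pair may have been divided between them in counting. A match is a description of the letters and not evidence of binding.

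The libraries held 4313 to 9608 barcodes and 12448164 to 36423571 unique molecular identifiers (UMIs, 1 per captured transcript end), with median UMIs per barcode of 1894 to 3096. Pairs of libraries shared 3 to 17 barcode strings. With 1 library per dose and fraction there was no replicate and no test, and fewer cells of a kind in a whole library cannot be told apart from less RNA per cell without the gates below. Levels are UMIs per 1000000 UMIs of a library or class (CPM), and ratios are 4 Gy over 0 Gy with an exact 95% interval in brackets that covers counting error only, not the spread between mice. A member counted as measured with at least 10 UMIs over both libraries, and as higher or lower when it differed by at least 1.5-fold after 5 CPM was added to both levels. The share of all measured genes past the same limit is given beside the first count of each comparison.

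Cells were assigned to classes by the number of marker genes detected per cell, and barcodes with at least 3 markers of another lineage were set aside as mixed (2.09% and 1.90% of CD45-negative, 8.88% and 10.1% of CD45-positive barcodes at 0 Gy and 4 Gy). Endothelial cells made up 91.1% and 92.6% of CD45-negative barcodes, so the CD45-negative libraries are largely endothelial. The 10 leading genes of the cells gated on keratins and Cdkn2a included Wfdc2, Ager and Cldn18, genes of normal alveolar epithelium. The others were Tm4sf1, Lgals2, Gsta4, Cystm1, Onecut2, Igfbp7 and Tspan8. Whether these cells were tumour or normal was not tested, and they are called keratin-gated epithelial cells. Those gated on C1q genes are called C1q-gated macrophages, since Arg1, Saa3, Mmp12 and Gpnmb led them.

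At 0 Gy the 41 genes were unevenly spread over the lung. Across the classes compared, neutrophil-gated cells had the highest 0 Gy level of 16 members and classical-monocyte-gated cells that of 13. Isg15, a ubiquitin-like protein conjugated to other proteins, stood at 775 CPM in neutrophil-gated and 299 CPM in classical-monocyte-gated cells, at 145 CPM in endothelial cells and at 19.4 CPM in B-gated cells. Rsad2, the antiviral enzyme viperin, stood at 269 CPM in neutrophil-gated cells against 20.4 CPM in endothelial cells. The membrane protein Bst2 (tetherin) was high in endothelial cells, at 1088 CPM, and reached 3949 CPM in plasmacytoid-dendritic-gated cells, of which there were only 26 and 38. Ifitm3, which blocks virus entry, was abundant in endothelial cells (3363 CPM) and classical-monocyte-gated cells (6758 CPM), and nearly absent from NK-gated cells (17.8 CPM). Mx1, which is defective in many laboratory strains, had 1 and 0 UMIs in endothelial cells and at most 52.9 CPM in any class compared at 0 Gy, in classical-monocyte-gated cells.

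**Figure D1:**
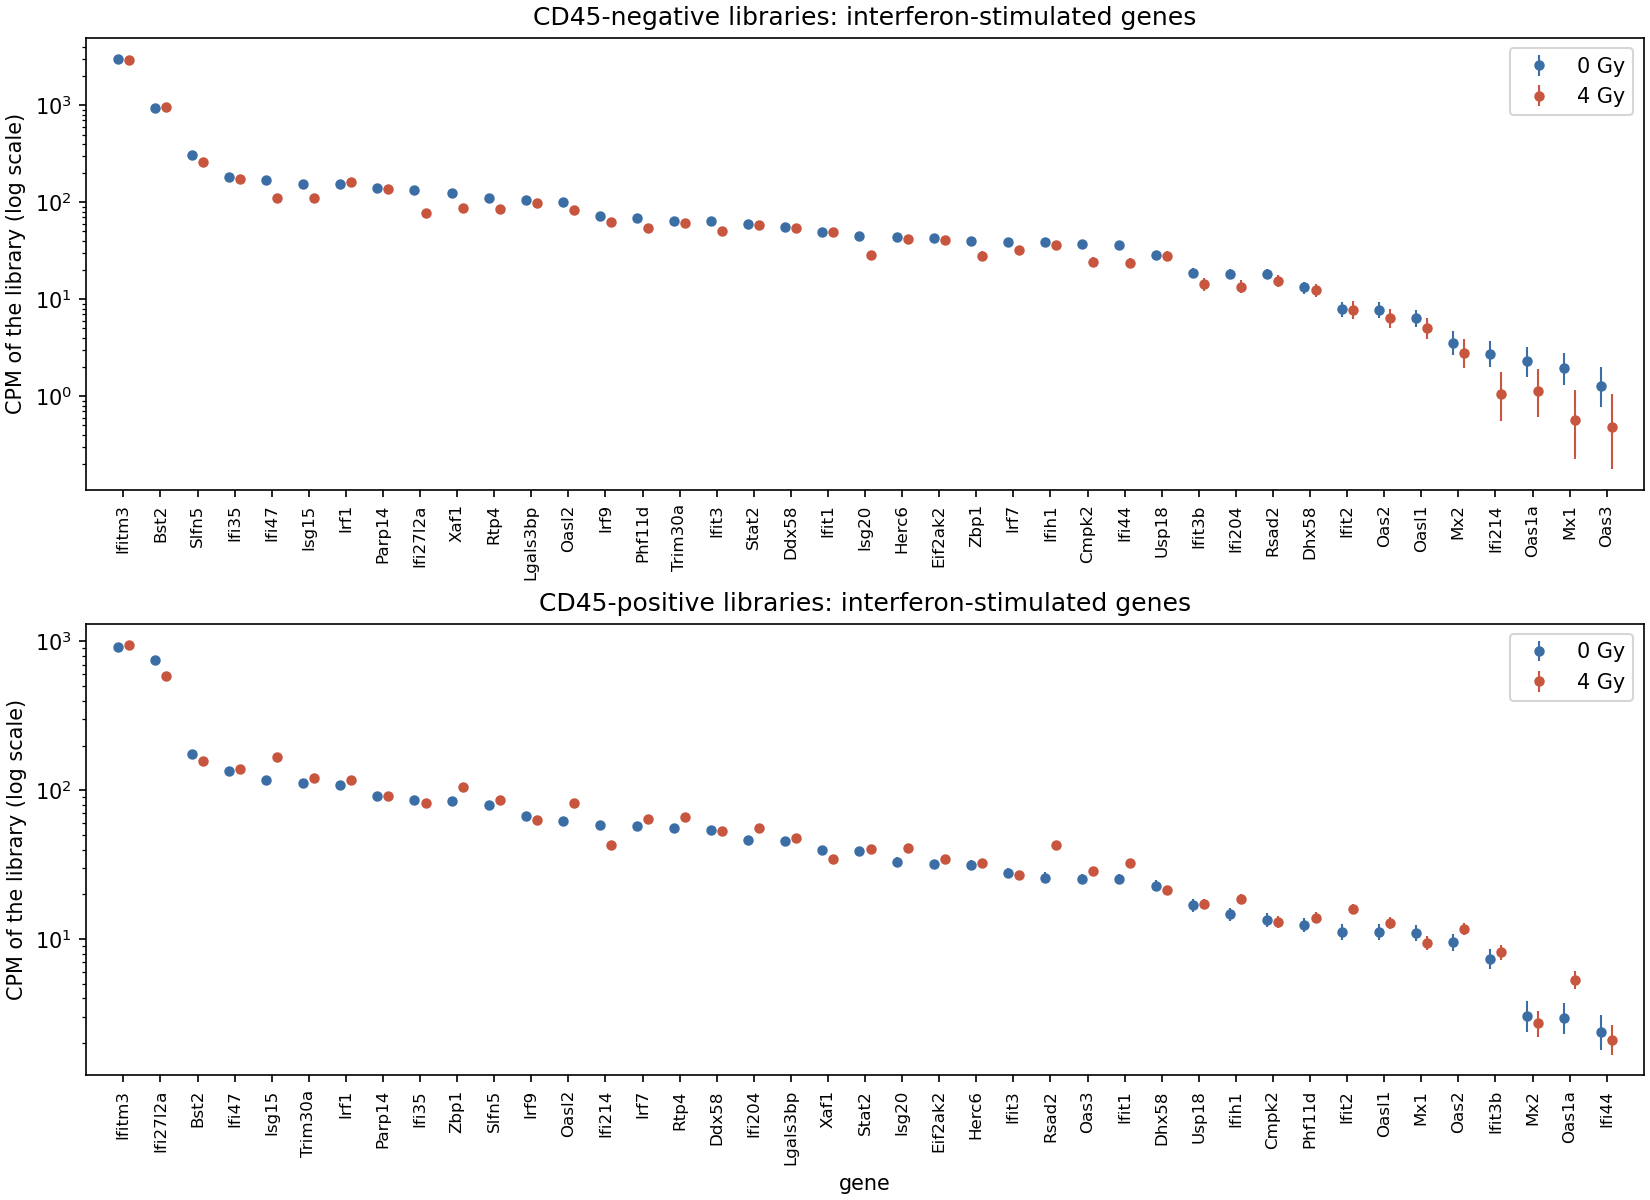
Level of each of the 41 genes in the 0 Gy (blue) and 4 Gy (red) libraries of each fraction, in CPM of the whole library on a log axis, with exact 95% counting intervals; genes are ordered by their 0 Gy level. In the CD45-negative pair most red points sit at or below the blue ones, and in the CD45-positive pair the points for Isg15, Rsad2 and Oasl2 sit above.

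In the CD45-negative fraction the members stood slightly lower in the 4 Gy library. Their median log2 ratio was -0.20, against 0.02 over all 18551 measured genes, and 38 of 41 lay below 0. None was at least 1.5-fold higher and 2 were lower, beside 1.96% of all genes higher and 0.965% lower. These 2 were Ifi27l2a, a strongly interferon-induced gene, and Ifi47, an immunity-related GTPase. The counting interval lay below 1 for 23 members, above 1 for 0 and spanned 1 for 18. The same count was not made over all genes, so whether it is particular to the members is not known.

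Among antiviral effectors of the CD45-negative libraries, Isg15 stood at 155 against 109 CPM, ratio 0.708 [0.662 to 0.757]. Ifit3, which binds foreign RNA in complex with Ifit1, stood at 63.6 against 50.3 CPM, ratio 0.790 [0.713 to 0.875]. Ifit1 was level, at 49.6 against 49.97 CPM, ratio 1.01 [0.903 to 1.12], as was Ifit2 at 7.86 against 7.79 CPM, ratio 0.991 [0.7495 to 1.31]. Of the 622 UMIs of Ifit1 at 4 Gy, 163 lay in a single fibroblast. Oasl2, of the oligoadenylate synthetase-like family, stood at 99.8 against 84.0 CPM, ratio 0.842 [0.777 to 0.912]. Rsad2 stood at 18.4 against 15.6 CPM, ratio 0.847 [0.701 to 1.02], an interval that reaches 1. The membrane restriction factors were close to level, with Bst2 at 932 against 953 CPM, ratio 1.02 [0.998 to 1.05], and Ifitm3 at 3033 against 2959 CPM, ratio 0.976 [0.962 to 0.989].

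Of the regulators and sensors in the CD45-negative libraries, Irf7, the factor that amplifies interferon production, stood at 39.2 against 32.1 CPM, ratio 0.820 [0.721 to 0.933]. Irf1, which also answers interferon gamma, went the other way within its counting error, at 154 against 163 CPM, ratio 1.05 [0.991 to 1.12]. Zbp1, a sensor of left-handed nucleic acid, stood at 39.5 against 28.0 CPM, ratio 0.710 [0.620 to 0.812]. The feedback protease Usp18 was level, at 28.8 against 28.1 CPM, ratio 0.978 [0.847 to 1.13]. Ifi27l2a stood at 133 against 78.3 CPM, ratio 0.591 [0.547 to 0.638]; 67.7% and 76.0% of its UMIs lay in mixed barcodes and only 8.57% and 6.56% in endothelial cells, so its value in the whole libraries is mostly not an endothelial one. Ratios of the 28 members not named ran from 0.289 for Mx1, which had 29 and 7 UMIs, to 0.982 for Stat2.

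In the CD45-positive fraction the members stood slightly higher as a group in the 4 Gy library. Their median log2 ratio was 0.09, against 0.01 over 19152 genes, and 28 of 41 lay above 0. Rsad2 was at least 1.5-fold higher and no member was lower, beside 1.19% of all genes higher and 0.256% lower. The counting interval lay above 1 for 18 members, below 1 for 5 (Irf9, Ifi27l2a, Ifi214, Xaf1 and Bst2) and spanned 1 for 18. Here too the count was not made over all genes.

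Of the effectors in the CD45-positive libraries, Rsad2 stood at 25.95 against 42.9 CPM, ratio 1.65 [1.51 to 1.82]. Isg15 stood at 117 against 168 CPM, ratio 1.45 [1.38 to 1.51]. Oasl2 stood at 62.2 against 82.7 CPM, ratio 1.33 [1.25 to 1.42]. All 3 had their highest 0 Gy level in neutrophil-gated cells. Ifit1 stood at 25.3 against 32.6 CPM, ratio 1.29 [1.17 to 1.43], and Ifit2 at 11.2 against 16.01 CPM, ratio 1.43 [1.24 to 1.66]. Ifit3 was level at 27.8 against 26.9 CPM, ratio 0.968 [0.877 to 1.07]. Of the membrane factors, Ifitm3 stood at 912 against 949.7 CPM, ratio 1.04 [1.02 to 1.06], while Bst2 stood at 176 against 156 CPM, ratio 0.887 [0.852 to 0.923].

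Of the regulators in the CD45-positive libraries, Irf7 stood at 57.8 against 63.75 CPM, ratio 1.10 [1.03 to 1.18], and Irf1 at 109 against 116 CPM, ratio 1.07 [1.02 to 1.12]. Zbp1 stood at 84.5 against 105 CPM, ratio 1.24 [1.17 to 1.31]. Usp18 was level at 16.9 against 17.2 CPM, ratio 1.02 [0.895 to 1.15]. Ifi27l2a, which B-gated, T-gated and classical-monocyte-gated cells express, was lower, at 747 against 583 CPM, ratio 0.780 [0.765 to 0.796]. Ratios of the other 28 members ran from 0.728 for Ifi214 to 1.80 for Oas1a.

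The makeup of the CD45-positive libraries differed by dose. Neutrophil-gated cells were 5.85% of barcodes at 0 Gy and 9.51% at 4 Gy (317 and 914 cells). They held 3.99% and 6.69% of all UMIs, but 26.5% and 36.6% of Isg15 UMIs, 41.3% and 46.5% of Rsad2 UMIs and 28.5% and 40.8% of Oasl2 UMIs. Without these cells the members' median log2 ratio was 0.02, with 24 of 41 above 0 and 0 at least 1.5-fold higher. Rsad2 then stood at 15.9 against 24.6 CPM, Isg15 at 89.2 against 114.5 CPM and Oasl2 at 46.3 against 52.4 CPM. These 3 genes thus stayed higher at 4 Gy outside the neutrophil gate, but this remainder includes mixed and ungated barcodes. The mixed ones held 27.0% and 34.6% of Isg15 UMIs at 0 Gy and 4 Gy. Of Rsad2 UMIs they held 32.2% and 33.4%, and of Oasl2 UMIs 33.6% and 37.3%. Whether the 3 genes were higher in the other gated leukocytes is not shown by these levels. With every class given its 0 Gy share of the UMIs at both doses, the members' median was -0.02, with 18 of 41 above 0 and 0 higher. Mixed and ungated barcodes, with 21.5% and 3.18% of the UMIs at 0 Gy, entered as classes, so the makeup within them was not fixed. In the CD45-negative libraries the same calculation gave -0.16, with 38 of 41 below 0. Both calculations were added after the data were seen.

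**Figure D2:**
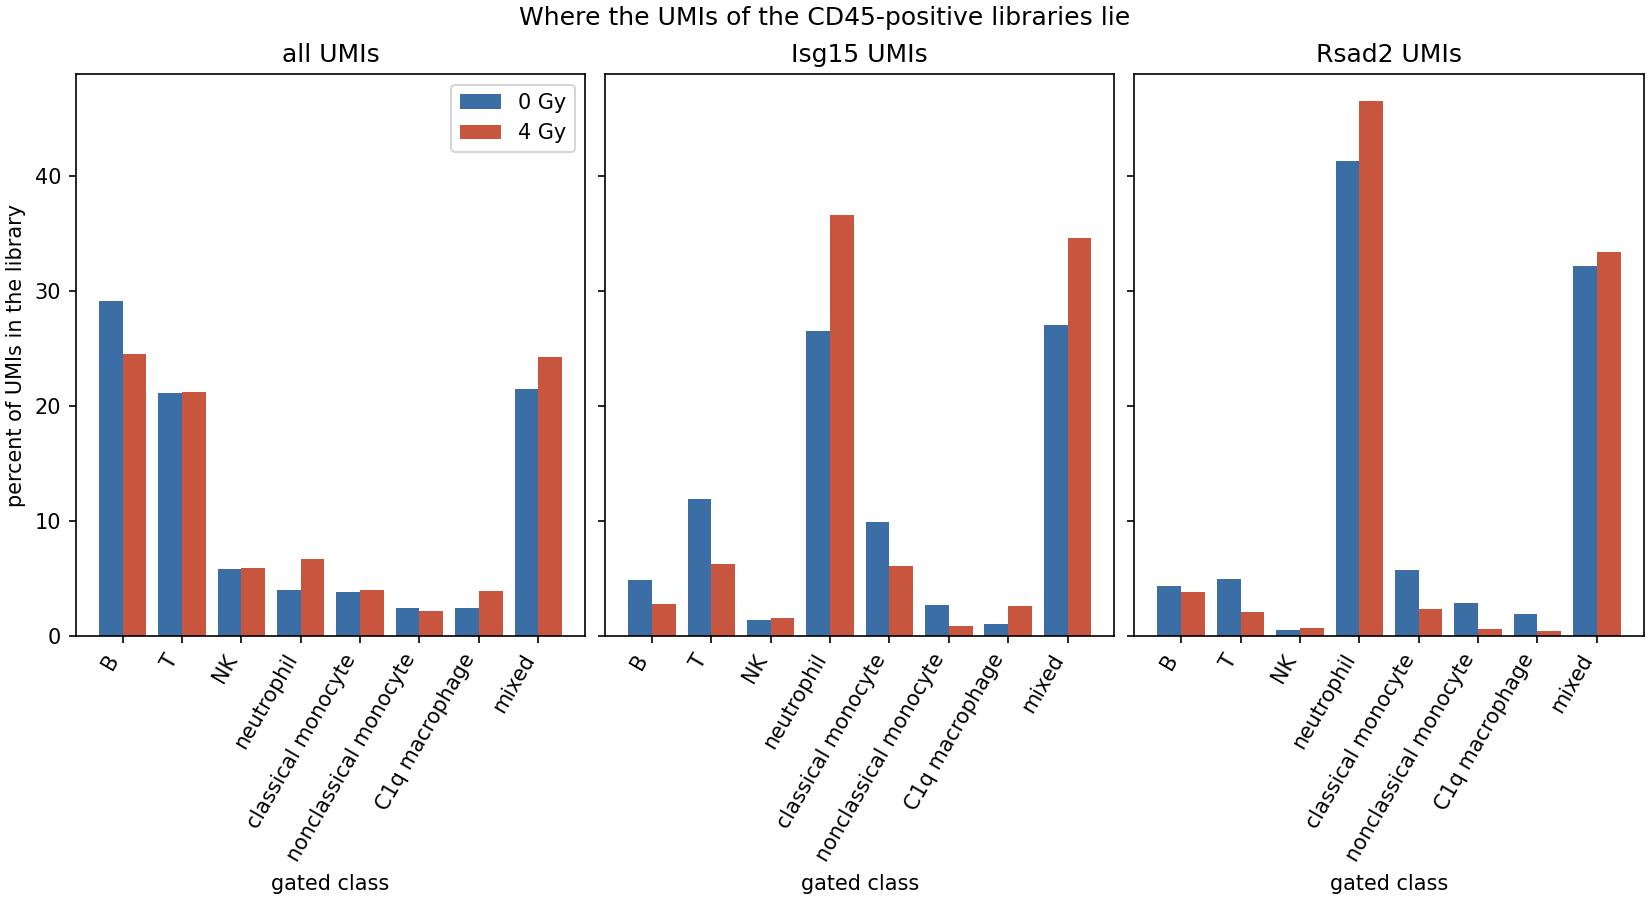
Percent of all UMIs, of Isg15 UMIs and of Rsad2 UMIs that lay in each gated class of the CD45-positive libraries, at 0 Gy (blue) and 4 Gy (red); smaller classes and ungated cells are not drawn. Neutrophil-gated cells hold a small part of all UMIs but 36.6% of Isg15 and 46.5% of Rsad2 UMIs at 4 Gy, and mixed barcodes hold 34.6% and 33.4% of them.

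Within gated classes the picture was a modest lower level at 4 Gy in most cell types. Of the 15 classes and subclasses compared, 12 had a median log2 ratio below 0, among them 6 of the 9 main classes. The exceptions were keratin-gated epithelial cells, C1q-gated macrophages and neutrophil-gated cells. The subclasses are cells of the endothelial and T gates counted again, so these are not separate observations. Summed over the 39 members other than Ifitm3 and Bst2, whose high levels would otherwise carry the sum, the counting interval lay below 1 in 5 main classes and above 1 in 3. Ifi27l2a alone still made up much of this sum at 0 Gy, with 39.3% in B-gated and 34.7% in T-gated cells. Its share was 38.5% in classical-monocyte-gated cells, 32.8% in nonclassical-monocyte-gated cells and 30.4% in C1q-gated macrophages. Sums without it were not taken.

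**Figure D3:**
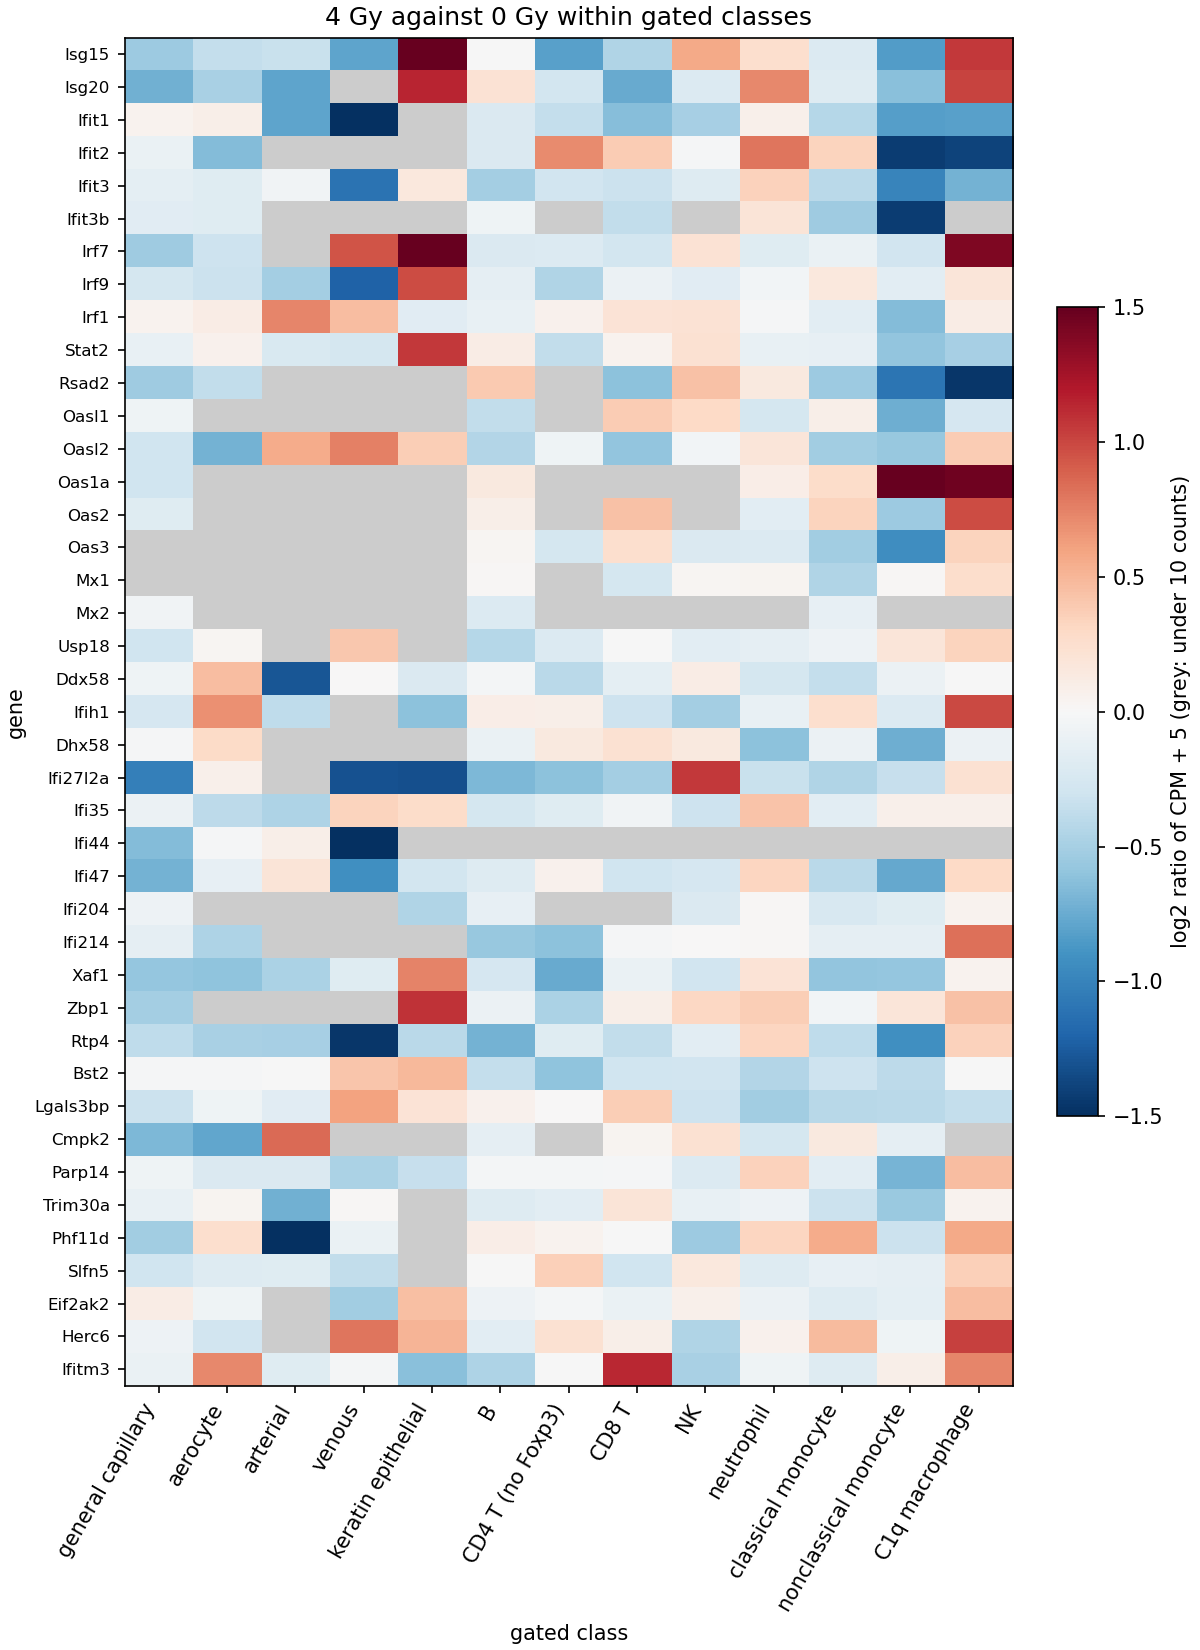
Log2 ratio of 4 Gy to 0 Gy (5 CPM added) for each of the 41 genes in 13 gated classes, from blue (lower at 4 Gy) to red (higher); the colour scale ends at 1.5 and grey marks genes under 10 UMIs. The nonclassical monocyte column is mostly blue and the C1q macrophage column mostly red, with its darkest blue cells at Ifit2 and Rsad2.

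In endothelial cells (5448 and 3993 cells) the members were lower at 4 Gy as a group, but not each of them. Irf1 and Bst2 were level, and the upper counting bounds of the members had a median log2 value of -0.01. The median log2 ratio was -0.19 against 0.02 over all genes, and of 39 measured members 0 were higher and 6 lower, beside 1.71% of genes higher and 0.678% lower. The 39 members without Ifitm3 and Bst2 summed to 2636 against 2144 CPM, ratio 0.813 [0.799 to 0.828]. The lowest by ratio was Ifi27l2a, at 14.8 against 6.35 CPM, ratio 0.428 [0.316 to 0.574]. Rsad2 stood at 20.4 against 10.9 CPM, ratio 0.536 [0.423 to 0.675], with 28.2% of its 4 Gy UMIs in a single cell, and 0.419 with the highest cell of each library left out. Isg20, an exonuclease that degrades viral RNA, stood at 39.95 against 22.9 CPM, ratio 0.574 [0.487 to 0.673]. Cmpk2, a mitochondrial nucleotide kinase encoded next to Rsad2, stood at 43.7 against 26.6 CPM, ratio 0.608 [0.522 to 0.707]. Ifi47 stood at 189.7 against 116 CPM, ratio 0.613 [0.570 to 0.658], spread over 1465 and 791 cells. Irf1 stood at 179.6 against 185 CPM, ratio 1.03 [0.968 to 1.10], and Bst2 at 1088 against 1086 CPM. Leukocyte markers were nearly absent from these cells, at 2.63 and 5.06 CPM for 4 genes summed, while haemoglobin and other erythroid genes summed to 3241 and 1857 CPM; their part in the result was not tested.

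The endothelial subclasses had similar medians. General capillary cells (4346 and 2981 cells), the bulk of the class, had a median of -0.18 with 0 of 39 members higher and 5 lower, beside 1.9% and 0.818% of genes. The 5 were Ifi27l2a, Isg20, Cmpk2, Ifi44 and Ifi47, with ratios from 0.257 to 0.603; 42.6% of the 0 Gy UMIs of Ifi27l2a came from a single cell, and without the highest cells its ratio was 0.403. Aerocytes (489 and 337 cells), the thin capillary cells of gas exchange, had a median of -0.18 with 2 of 33 higher and 4 lower, beside 7.94% and 3.52% of genes. The 4 lower were Ifit2, Cmpk2, Oasl2 and Xaf1, a pro-apoptotic factor, and Oasl2 had a ratio of 0.591 [0.437 to 0.793].

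The 2 members higher in aerocytes were Ifih1, the RNA sensor MDA5, at 25.7 against 44.5 CPM, ratio 1.73 [1.15 to 2.63], and Ifitm3, at 576 against 951 CPM, ratio 1.65 [1.52 to 1.80]. Ifitm3 is carried at 3843 CPM by general capillary cells, whose 5 markers summed to 415 and 645 CPM in the aerocyte gate, and erythroid markers there went from 109 to 2852 CPM; their part in this difference was not tested. Arterial cells (65 and 71) had a median of -0.23 with 2 of 23 higher and 5 lower, beside 19.4% and 15.3% of genes. Venous cells (56 and 53) had a median of -0.18 with 4 of 25 higher and 8 lower, beside 17.3% and 16.3% of genes. At so few cells the share of all genes past the limit is large, and single values there are weak. In venous cells Rtp4, a chaperone of receptors, stood at 132 against 44.7 CPM, ratio 0.339 [0.130 to 0.790]. The other venous members past the limit with at least 20 UMIs were Ifi27l2a, Irf9, Ifi47 and Isg15 with ratios from 0.392 to 0.559, and Oasl2 with 1.76; in arterial cells they were Irf1 with 1.70 and Trim30a with 0.588, both with intervals that span 1. For arterial cells thinned to 1000 UMIs the median was 0.05, of the other sign. The other venous members past the limit with at least 20 UMIs were Ifi27l2a, Irf9, Ifi47 and Isg15 with ratios from 0.392 to 0.559, and Oasl2 with 1.76; in arterial cells they were Irf1 with 1.70 and Trim30a with 0.588, both with intervals that span 1. For arterial cells thinned to 1000 UMIs the median was 0.05, of the other sign.

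Keratin-gated epithelial cells (125 and 55 cells) had the members higher at 4 Gy as a group; the difference from the endothelium was not tested. The median was 0.28 over 23 measured members, with 7 higher and 3 lower, beside 15.7% and 15.9% of genes. Isg15 stood at 28.5 against 175 CPM, from 18 and 49 UMIs, ratio 6.14 [3.51 to 11.2]. It was detected in 12 and 11 cells, 34.7% of the 4 Gy UMIs were in a single cell, and without the highest cell of each library the ratio was 4.81. Zbp1 stood at 68.2 against 150.2 CPM, ratio 2.20 [1.41 to 3.45], and Isg20 at 42.8 against 100.1 CPM, ratio 2.34 [1.33 to 4.13]. Irf9, the DNA-binding part of ISGF3, had 11 UMIs at each dose, ratio 2.26 [0.887 to 5.74]. Ifitm3 went the other way, at 555 against 358 CPM, ratio 0.645 [0.511 to 0.807]. As a mean over cells, in which each cell weighs the same, the median of the class was -0.08, and the summed ratio of all 41 members, 1.22, became 1.05 with cluster-based classes and 1.01 with mixed barcodes kept.

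**Figure D4:**
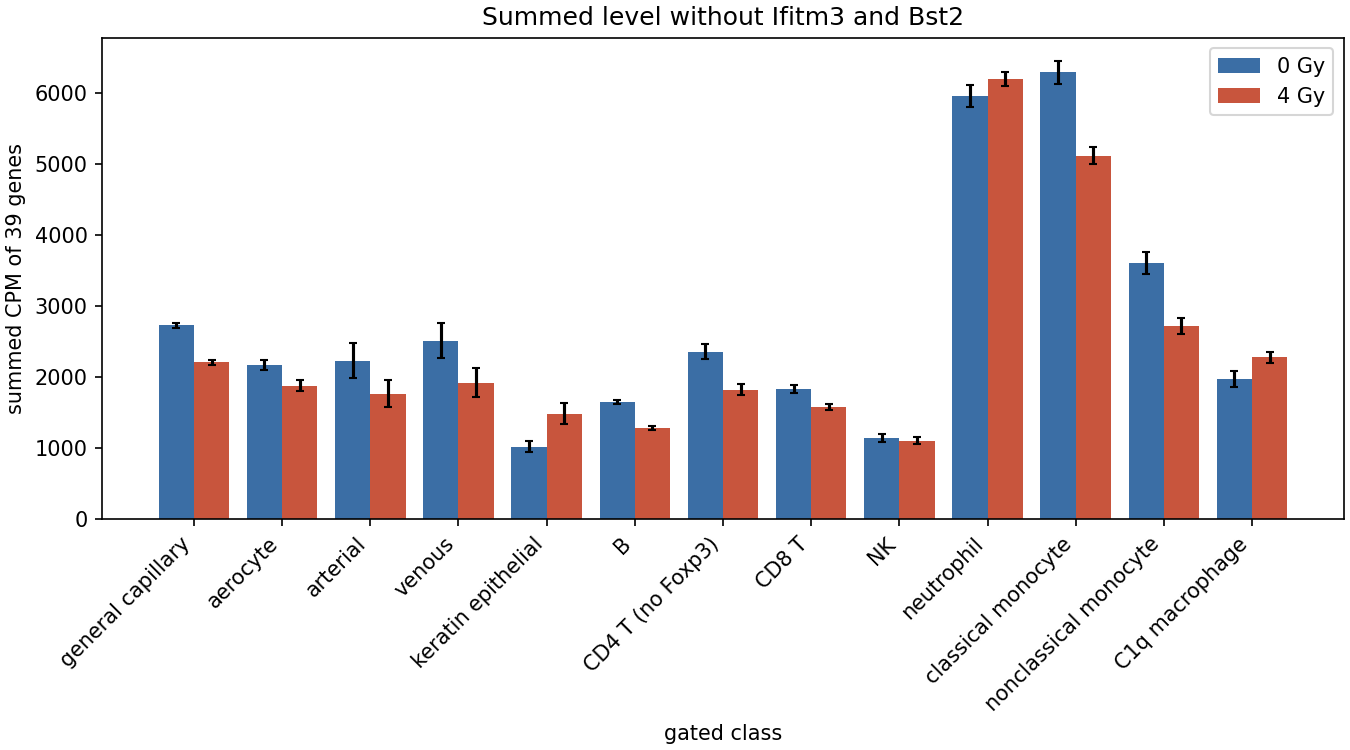
Summed level of the 39 members other than Ifitm3 and Bst2 in each gated class, in CPM of the class, at 0 Gy (blue) and 4 Gy (red), with exact 95% counting intervals. Classical-monocyte-gated and neutrophil-gated cells carry the highest bars; the bar is lower at 4 Gy in the former (6292 against 5117 CPM) and similar in the latter (5952 against 6202 CPM).

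Lymphocytes had lower sums at 4 Gy in B-gated and T-gated cells. B-gated cells (2203 and 3278) had a median of -0.13 with 0 of 40 members higher and 2 lower, beside 1.36% and 0.392% of genes. The 2 were Ifi27l2a, at 651 against 406 CPM, ratio 0.625 [0.598 to 0.652], and Rtp4, at 26.0 against 14.0 CPM, ratio 0.539 [0.426 to 0.681]. The 39 members summed to 1656 against 1286 CPM, ratio 0.777 [0.757 to 0.797], of which Ifi27l2a made up 39.3% at 0 Gy. T-gated cells (1173 and 2188) had a median of -0.11 with 0 of 41 higher and 0 lower, beside 1.22% and 0.77% of genes, and a sum of 2097 against 1760.4 CPM.

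The T-cell subclasses named more genes, being smaller. CD4 T cells without Foxp3 (236 and 370) had a median of -0.18 with 1 of 31 higher and 5 lower, beside 7.16% and 8.26% of genes. The lower ones were Isg15, Xaf1, Ifi214, Bst2 and Ifi27l2a, the last at 1097 against 713 CPM, ratio 0.649 [0.592 to 0.713], and the higher one was Ifit2 with 9 and 23 UMIs. CD8 T cells (442 and 890) had a median of -0.09 with 1 of 37 higher and 4 lower, beside 3.55% and 1.55% of genes. Isg20 stood at 36.1 against 19.3 CPM, ratio 0.534 [0.383 to 0.743], and Ifit1 at 36.1 against 21.5 CPM, ratio 0.594 [0.430 to 0.820]. A single 0 Gy cell held 40.7% of the Ifit1 UMIs, and without the highest cells the ratio was 0.925. The other lower ones were Rsad2 and Oasl2, with ratios of 0.440 and 0.507, and of 0.608 and 0.578 without the highest cells. Ifitm3 was the higher one, at 12.0 against 32.3 CPM, ratio 2.68 [1.76 to 4.24]; a single cell held 35.3% of its 4 Gy UMIs, and neutrophil markers in this gate summed to 33.9 and 61.4 CPM, whose part was not tested. With mixed barcodes kept the medians were 0.08 in CD4 T cells without Foxp3 and 0.0038 in CD8 T cells, of the other sign.

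NK-gated cells (427 and 881) had a median of -0.13 with 1 of 36 higher and 0 lower, beside 6.56% and 3.0% of genes. The higher gene was Ifi27l2a, at 14.3 against 35.1 CPM, ratio 2.46 [1.49 to 4.26], detected in 10 and 39 cells. Its level in T-gated cells was 728 CPM, and neutrophil markers in the NK gate summed to 30.7 and 87.6 CPM, so that free RNA or mixed barcodes as its source was not tested. The sum of the 39 members was level in NK-gated cells, at 1146 against 1108 CPM, ratio 0.967 [0.907 to 1.03]. With mixed barcodes kept the median was 0.04, of the other sign. With mixed barcodes kept the median was 0.04, of the other sign.

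Neutrophil-gated cells, which had the highest levels of Isg15 and Rsad2, showed little difference by dose for the set as a whole. The median was 0.02 with 2 of 39 members higher and 1 lower, beside 6.83% and 6.11% of genes. Isg20 stood at 110.4 against 185 CPM, ratio 1.68 [1.35 to 2.09], and Ifit2 at 16.7 against 32.8 CPM, ratio 1.97 [1.14 to 3.61]. Dhx58, a regulator of RNA sensing, stood at 36.4 against 22.2 CPM, ratio 0.608 [0.390 to 0.959]. Isg15 was at 775 CPM in the 0 Gy and 921.5 CPM in the 4 Gy cells, ratio 1.19 [1.09 to 1.29]. For Rsad2 the levels were 269 and 299 CPM, ratio 1.11 [0.963 to 1.29], so both were below their ratios over the whole library. The sign of the median was not stable, at -0.05 with at least 50 UMIs required, -0.02 with at least 3 markers per cell and -0.0038 for cluster-based classes. The sign of the median was not stable, at -0.05 with at least 50 UMIs required, -0.02 with at least 3 markers per cell and -0.0038 for cluster-based classes. Markers of nonclassical monocytes in this gate summed to 899.6 and 434 CPM, and their part was not tested.

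Classical-monocyte-gated cells (159 and 286), the class with the highest sum over the 39 members at 0 Gy, had a median of -0.17 with 0 of 40 members higher and 1 lower, beside 9.7% and 4.08% of genes. The lower gene was Xaf1, at 122 against 79.1 CPM, ratio 0.649 [0.496 to 0.849]. The 39 members summed to 6292 against 5117 CPM, ratio 0.813 [0.786 to 0.842]. Irf7 in these cells was close to level, at 232 against 216 CPM, ratio 0.933 [0.782 to 1.12].

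Nonclassical-monocyte-gated cells (183 and 241), the patrolling monocytes of the vessel wall, had the lowest median of all classes compared, at -0.40. Of 39 members 15 were lower and 1 higher, beside 9.9% and 9.07% of genes. The 15 became 9 with mixed barcodes kept, 7 with at least 50 UMIs required and 6 after thinning to 1000 UMIs, and the summed ratio of all 41 members, 0.920, became 0.965 with mixed barcodes kept and 0.975 with cluster-based classes. Rsad2 stood at 30.7 against 11.6 CPM, ratio 0.380 [0.150 to 0.890], Ifit3 at 40.9 against 18.1 CPM, ratio 0.443 [0.212 to 0.892], and Ifit1 at 28.9 against 14.2 CPM, ratio 0.491 [0.208 to 1.11]. The Ifit1 value turns on a single 0 Gy cell with 13 of 17 UMIs, and without the highest cells its ratio was 1.68, while those of Rsad2, with 61.1% of its 0 Gy UMIs in a single cell, and Ifit3 were 0.642 and 0.333. Oas3, a sensor of double-stranded RNA, stood at 78.3 against 38.8 CPM, ratio 0.495 [0.302 to 0.801], and Rtp4 at 85.1 against 42.7 CPM, ratio 0.501 [0.313 to 0.793]; both were spread over at least 23 cells per dose. The library also differed in this gate by erythroid markers, at 6709 and 29.7 CPM, and by neutrophil markers, at 686 and 363 CPM, whose part was not tested.

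C1q-gated macrophages (68 and 159 cells) had the highest median, at 0.30, with 9 of 37 members higher and 4 lower, beside 9.78% and 8.53% of genes. Irf7 stood at 13.6 against 43.8 CPM, ratio 3.23 [1.54 to 7.82], and Ifih1 at 13.6 against 31.8 CPM, ratio 2.35 [1.09 to 5.76]. Oas1a had 1 and 19 UMIs, ratio 7.92 [1.26 to 329], Herc6, a ligase for Isg15, 3 and 22, ratio 3.06 [0.919 to 15.96], and Oas2 3 and 21, ratio 2.92 [0.872 to 15.3]. Isg15, named after its values were seen, stood at 50.9 against 112 CPM, ratio 2.20 [1.48 to 3.36]. The Ifit genes went the other way, with Ifit2 at 32.2 against 9.19 CPM, ratio 0.285 [0.130 to 0.609], Ifit1 at a ratio of 0.477 [0.218 to 1.05] and Ifit3 at 0.5005 [0.198 to 1.29]. Most of their 0 Gy UMIs came from a single cell, with 89.5% for Ifit2, 78.6% for Ifit1 and 9 of 10 UMIs for Ifit3, and without the highest cells the ratios were 2.06, 1.78 and 4.12. The remaining lower member, Rsad2, had 12 and 6 UMIs.

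Fibroblasts (51 and 35 cells) were below the number of cells needed for comparison, but they bear on Rsad2 in the CD45-negative libraries, where they held 4.01% of its UMIs at 0 Gy and 39.7% at 4 Gy. Of their 77 Rsad2 UMIs at 4 Gy, 70 lay in a single cell, and the ratio of this gene was 0.847 over the whole libraries and 0.536 in endothelial cells. The same holds for Ifit1, with 163 of 181 fibroblast UMIs at 4 Gy in a single cell. Plasmacytoid-dendritic-gated cells (26 and 38), known as the main producers of type I interferon, had Irf7 at 212 and 214 CPM.

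The number of members detected in each cell, out of the 39 and after every cell was thinned to 1000 UMIs, showed whether a few cells or many carried the set. In endothelial cells (4995 and 3814 cells deep enough, 453 and 179 left out) at least 3 members were found in 35.6% of cells at 0 Gy and 26.0% at 4 Gy, and at least 1 in 86.5% and 80.1%. Unthinned, the mean was 4.07 against 3.92 members per cell. At equal depth the 4 Gy share was thus lower at each of these cut-offs, while the unthinned means were close, with a greater median depth at 4 Gy (2099 against 1929.5 UMIs in cells with under 8 members). In C1q-gated macrophages (62 and 142 cells) the mean was 1.15 against 1.80 members per thinned cell, with at least 3 in 9.68% [3.63 to 19.9] and 23.9% [17.2 to 31.8] of cells.

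Cells with at least 8 members, a threshold chosen after the data were seen, made up 2.34% [1.94 to 2.80] of endothelial cells at 0 Gy and 1.44% [1.09 to 1.87] at 4 Gy, with exact binomial intervals. At 0 Gy 117 such cells held 11.3% of the class's member UMIs, and 82 and 47 cells lay just below and at the threshold, with 7 and 8 members. The median depth of the 117 cells before thinning was 1918 UMIs against 1929.5 in the others.

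In neutrophil-gated cells the share was 13.1% [9.51 to 17.4] at 0 Gy and 16.3% [13.8 to 18.95] at 4 Gy, in 40 and 135 cells that held 43.2% and 50.4% of the class's member UMIs. In classical-monocyte-gated cells the share was 13.9% [8.94 to 20.3] and 8.93% [5.86 to 12.9], in nonclassical-monocyte-gated cells 4.49% [1.82 to 9.03] and 0.469% [0.0119 to 2.59], in T-gated cells 1.38% and 0.973% and in B-gated cells 0.641% and 0.614%. None was found among 93 and 38 keratin-gated epithelial cells. These intervals treat the cells of 1 library as the sample and leave out the spread between mice, so they do not compare the doses.

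**Figure D5:**
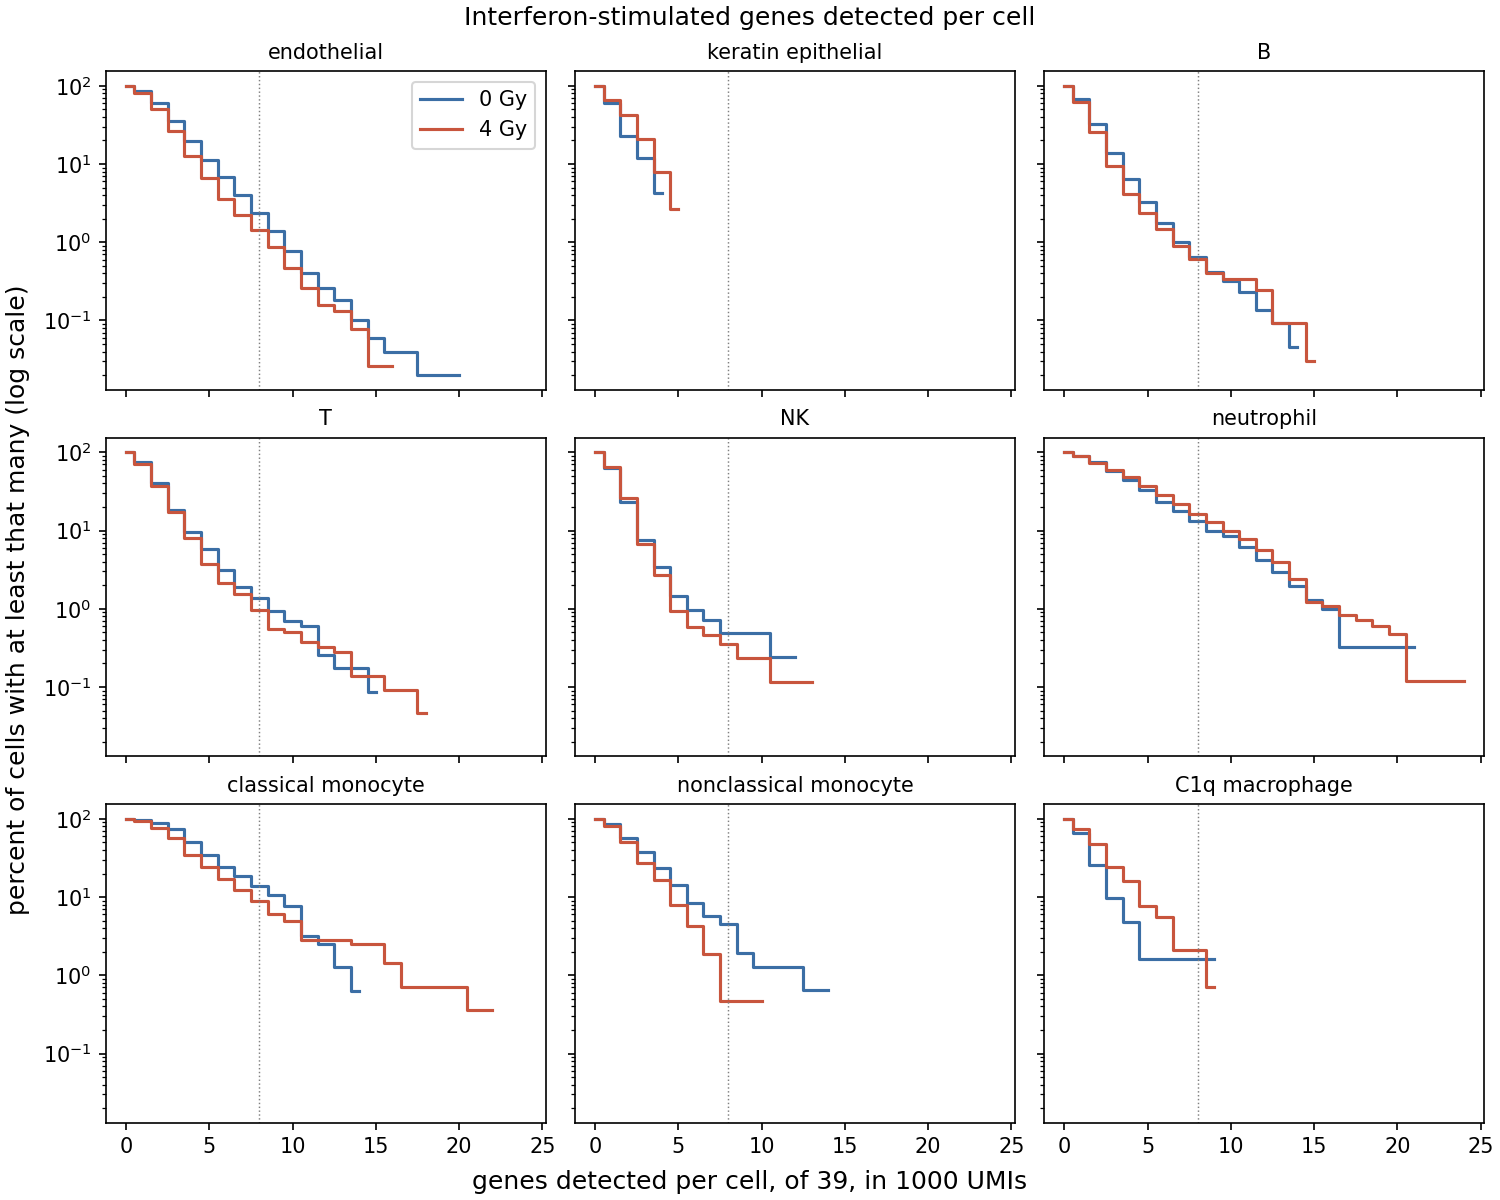
Percent of cells (log axis) in which at least the given number of the 39 genes was detected after thinning to 1000 UMIs, in 9 gated classes at 0 Gy (blue) and 4 Gy (red); the dotted line marks 8 genes. The endothelial curve for 4 Gy runs below that for 0 Gy over most of the range, with 26.0% against 35.6% of cells at 3 or more genes.

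Of the ligands of the pathway, only Ifnk, a type I interferon of epithelium, and Ifng, the type II interferon of lymphocytes, were analysed here. Ifnk was near the detection floor, with 2 UMIs at each dose among non-leukocytes and 7 at each dose among leukocytes. Ifng was level in the CD45-positive libraries at 8.73 against 8.84 CPM, ratio 1.01 [0.848 to 1.21]; in CD4 T cells without Foxp3 it stood at 23.2 against 66.9 CPM, ratio 2.88 [1.76 to 4.91], and in CD8 T cells at 23.6 against 13.04 CPM, ratio 0.552 [0.365 to 0.831].

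The receptor genes were level in both fractions, with 0 of 5 receptors higher and 0 lower in each, beside 1.96% of all genes higher and 0.965% lower among non-leukocytes, and 1.19% and 0.256% among leukocytes. These shares are also the background of the next counts. In endothelial cells Ifnar1 stood at 79.9 against 86.2 CPM, ratio 1.08 [0.982 to 1.19], and Ifnar2 at 106 against 121 CPM, ratio 1.14 [1.05 to 1.23]. Of the signalling genes 0 of 9 and 0 of 10 measured passed the limit in the CD45-negative and CD45-positive libraries. Of the inhibitors only Socs1, which blocks the receptor's kinases, passed it, in the CD45-negative libraries, at 14.9 against 7.55 CPM, ratio 0.506 [0.394 to 0.647]. Within endothelial cells 0 of the 5 measured inhibitors were higher and 0 lower, beside 1.71% and 0.678% of genes, with a median of 0.04. None of the 8 and 9 measured sensors and adaptors passed the limit in either fraction.

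Of 52 further interferon-stimulated genes, all measured in both fractions, 0 were higher and 6 lower in the CD45-negative libraries, with a median log2 ratio of -0.14, beside 1.96% and 0.965% of all genes. In the CD45-positive libraries 2 were higher and 0 lower, with a median of 0.04, beside 1.19% and 0.256%. The 2 were Ifitm1, at 168 against 265 CPM, ratio 1.58 [1.52 to 1.64], and Gbp2, a guanylate-binding protein, at 102 against 161 CPM, ratio 1.57 [1.5 to 1.65]. In endothelial cells only 1 of 47 measured genes of that list was lower and 1 higher, beside 0.678% and 1.71% of genes, with a median of -0.13. The lower one was Ifi206, of the same DNA-sensor family as Ifi204, at 80.1 against 45.4 CPM, ratio 0.567 [0.506 to 0.635]. The higher one was the chemokine gene Cxcl10, at 2.90 against 12.4 CPM, ratio 4.28 [2.90 to 6.49]. In neutrophil-gated cells 3 of 48 measured genes of that list were higher and 1 lower, beside 6.83% and 6.11% of genes. The higher ones were Ly6a and Ifi27, with ratios of 1.77 [1.49 to 2.11] and 1.79 [1.39 to 2.33], and Ifi208, with 2 and 20 UMIs, and the lower one was Ms4a4c, with a ratio of 0.593 [0.450 to 0.785].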

How the data were processed

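Single-cell 3′ RNA libraries (10x Genomics) of 4 groups were analysed, 1 per dose and fraction. The authors deposited, per the values of the tables, log2(CPM + 1) for each gene and barcode. STAR, Partek, Seurat and the mm10 build are named in the submitters' processing notes, with no versions or roles. The plan had assumed raw counts; since the deposited unit is log2, each value was turned back into CPM and divided by the value of 1 UMI in its cell, and 99.999% of values came out whole within 0.02 of a UMI. Depth was 12448164 to 36423571 UMIs per library.

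UMIs were summed over cells of a library or class. Exact 95% intervals of ratios (Clopper-Pearson, scipy 1.17.1) cover counting error only, because UMIs say nothing of the spread between mice. No test was made, as each group was 1 library. Cells were assigned to the class with most detected markers (at least 2), mixed barcodes were set aside in place of a doublet caller, and a class was compared with at least 50 cells at both doses. Scaling by the median of ratios took the place of size factors of count packages. Genes named in the library comparisons came from a list of 13; in a class, those past 1.5-fold with at least 20 UMIs, at most the 5 highest and 5 lowest, were eligible. The members and lists were chosen with earlier results of these data known. The ratio code was tested on simulated data. Clusters used scanpy 1.11.5 and leidenalg 0.10.2, without the 41 genes. Python 3.11.15, numpy 2.4.6, pandas 2.3.3, matplotlib 3.10.9 and Biopython 1.88 were used. Alternatives covered the pseudocount, count minimum, scaling, weighting of cells, thinning, fold, gates and mixed barcodes.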

Additional observations from a re-analysis of the deposited data

Results flagged for a closer look

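The direction of the members differed between the fractions, and this difference was not tested, since each fraction had 1 library per dose. The median log2 ratio of 4 Gy to 0 Gy was -0.20 in the CD45-negative and 0.092 in the CD45-positive libraries. How many of all genes had counting intervals on opposite sides of 1 was not counted. For 11 members the counting interval of the ratio lay below 1 in the CD45-negative and above 1 in the CD45-positive pair. Isg15 had ratios of 0.708 and 1.45, Isg20 of 0.642 and 1.24, and Irf7 of 0.820 and 1.10 in that order. Of the oligoadenylate synthetase family, Oasl2 had ratios of 0.842 and 1.33, Oas1a of 0.492 and 1.80, and Oas3 of 0.378 and 1.12. The sensors Ifi204 and Zbp1 had ratios of 0.733 and 1.20, and of 0.710 and 1.24. Rtp4 had ratios of 0.771 and 1.18, Slfn5 of 0.849 and 1.08, and Ifitm3 of 0.976 and 1.04. With each class held at its 0 Gy share of UMIs, the CD45-positive median was -0.02. Mixed and ungated barcodes were classes in this calculation, and the makeup within them was not fixed. In it 3 of these members lay slightly lower at 4 Gy: Oas3 at 25.5 against 24.8 CPM, Rtp4 at 56.1 against 54.6 CPM and Ifitm3 at 912 against 886 CPM.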

How the results depend on the processing

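No paired analysis was possible because each group was 1 library. Of 167 medians under alternative settings, 158 kept their sign. The 9 that did not were keratin-gated epithelial cells as a mean over cells (-0.075), arterial cells thinned to 1000 UMIs (0.052), the CD45-positive libraries at the 0 Gy makeup (-0.018, added after seeing the data), NK-gated (0.040), CD4 T (0.081) and CD8 T cells (0.0038) with mixed barcodes kept, and neutrophil-gated cells with at least 50 counts (-0.045), at least 3 markers (-0.020) or cluster classes (-0.0038). Counts of members past the limit were small and moved with the settings. In the CD45-negative libraries the 2 lower became 8 with a pseudocount of 1 CPM, 0 with 50 CPM, 6 as a mean over cells, 6 after thinning to 1000 UMIs and 0 at 2-fold. In endothelial cells the 6 lower became 0 with 50 CPM and 0 at 2-fold. In the CD45-positive libraries the 1 higher became 2 with 1 CPM, and 0 with 50 CPM, as a mean over cells, at 2-fold, at the 0 Gy makeup and without neutrophil-gated cells. In C1q-gated macrophages the 9 higher became 2 with 50 CPM, 4 with at least 50 counts, 17 as a mean over cells and 5 at 2-fold. The 4 lower there became 0 with 50 CPM, with at least 50 counts and with cluster classes, 1 after thinning, and 2 with mixed barcodes kept and at 2-fold. In nonclassical-monocyte-gated cells the 1 higher became 0 with 50 CPM and with at least 50 counts, and 2 as a mean over cells and with cluster classes. The 15 lower there became 0 with 50 CPM, 7 with at least 50 counts, 6 after thinning, 9 with mixed barcodes kept and 3 at 2-fold.
Summed levels of all 41 members moved beyond their counting interval in 29 of 90 alternatives. Without Ifitm3 and Bst2 the ratio was 0.813 in endothelial, 1.45 in keratin-gated, 0.868 in aerocyte, 0.793 in arterial, 0.808 in general capillary, 0.764 in venous, 0.813 in classical-monocyte-gated, 1.16 in C1q-gated, 1.04 in neutrophil-gated and 0.755 in nonclassical-monocyte-gated cells. The sum of all 41 members with cluster classes had a ratio of 1.05 in keratin-gated (1.22 as reported), 0.805 in classical-monocyte-gated, 1.19 in C1q-gated, 1.04 in neutrophil-gated and 0.975 in nonclassical-monocyte-gated cells (0.920 as reported). With mixed barcodes kept it was 1.01 in keratin-gated, 0.860 in B-gated, 1.05 in NK-gated, 0.931 in T-gated, 1.06 in neutrophil-gated, 0.965 in nonclassical-monocyte-gated, 0.946 in CD4 T and 0.925 in CD8 T cells. After thinning to 1000 UMIs it was 0.853 in venous, 1.78 in C1q-gated and 1.07 in neutrophil-gated cells, and after thinning to 1500 UMIs 0.984 in aerocytes, 1.59 in C1q-gated and 1.06 in neutrophil-gated cells.
The ratio of mean members detected per cell without Ifitm3 and Bst2 was 0.805 in endothelial, 0.860 in aerocyte and 0.795 in general capillary cells. Over all 41 members and all UMIs of a cell it was 0.985 in endothelial, 1.03 in aerocyte, 0.977 in general capillary, 0.777 in B-gated, 0.781 in NK-gated, 0.814 in T-gated and 0.828 in CD8 T cells, and 0.962 in neutrophil-gated cells, where the thinned ratio was 1.07. With cluster classes the ratio over all 41 members was 1.12 in C1q-gated macrophages, against 1.52 with the gates. The cause of these shifts was not tested.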
